A study of Mus musculus with 12 samples.

Results

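Fat of mice lacking the glucose transporter Glut4 in adipose tissue was set against fat of mice that carry the aP2-Cre transgene and served as its controls. The comparison was made up of the 3 arrays titled as adipose-specific knockout and the 3 titled as control for it, which are 6 of the 12 arrays of the series. Each array held total RNA from perigonadal fat, the depot around the ovary and uterus, of 1 mouse. All 6 mice were labelled female, 6 months old and fed ad libitum, on a mixed C57B6, FVB and SV129 strain background whose share in each mouse was not given. The knockouts were labelled adipose-Glut4-/- and the controls aP2-Cre transgenic, and the labels did not say whether the controls also carry a Glut4 allele prepared for deletion. The published line of this name deletes Glut4 with Cre under the aP2 (Fabp4) promoter, which is active in adipocytes and is also known to act in some other cells, macrophages among them. Nothing in the labels tied the mice to litters, so p-values measure the spread between these animals. In the genotype field the controls had the same entry as the knockouts, and groups were therefore taken from the titles.

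Glut4, encoded by Slc2a4, is the transporter that insulin brings to the surface of fat and muscle cells to let glucose in. In adipocytes part of that glucose is turned into fatty acids and into the glycerol backbone of triglyceride, and its flux feeds the transcription factor that switches on the lipogenic enzymes. Fat also secretes hormones and carrier proteins, such as leptin, adiponectin and retinol-binding protein, and holds macrophages, lymphocytes, vessels and matrix-forming cells beside its adipocytes.

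Intensities were compared as log2(intensity + 36.841), so that differences of dim genes are understated. Of 12422 probe sets (groups of short DNA probes that together read 1 transcript) the 4969 dimmest were left out and 7453 were tested with limma. A probe set was called when its Benjamini-Hochberg adjusted p was under 0.05. Values below are linear intensities per array, and differences are knockout minus control on the log2 scale. The array medians were 202.6, 206.0 and 210.1 in knockouts 1, 2 and 3 and 210.3, 204.9 and 185.8 in controls 1, 2 and 3, and the lowest intensity deposited was 22.27. Control 3 was the dimmest array and was the lowest of the 6 in 42.8% of tested probe sets, while knockout 3 was the highest in 37.3%. Over all tested probe sets 62.7% lay higher in the knockout, with a median difference of 0.042. That median was -0.010 without control 3, -0.011 after quantile normalization and 0.0049 after subtraction of array medians. With 3 arrays a side the smallest two-sided p of an exact permutation test is 0.1, and tests of single genes are therefore limma's.

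The targeted gene was read by 2 Slc2a4 probe sets. The brighter read 377.5, 365.4 and 363.4 in the knockouts and 416.1, 513.5 and 614.2 in the controls. All knockouts lay below all controls, with control 1 nearest to them and control 3 farthest, and the difference of -0.43 (SE 0.15, limma unadjusted p = 0.0185, adjusted p = 1.00) did not pass. The other probe set stayed between 22.27 and 29.4 on every array and was too dim to test. The deleted exons were not given, so neither probe set checks the labels. As background, 568 tested probe sets (7.62%) separated the groups fully, 422 with all knockouts higher (5.66%) and 146 with all knockouts lower (1.96%).

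Knockout fat carried a much higher signal of the Serpina1 genes, more of 1 immunoglobulin M heavy chain probe set and more Cyb5b and Nsmf. These were the 10 called probe sets, all higher, which is 0.134% of those tested. None was called lower (0%). An unadjusted p under 0.05 was reached by 246 higher (3.30%) and 38 lower (0.510%) probe sets, 284 in all (3.81%) against the 373 that chance would give.

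The Serpina1 genes encode alpha-1-antitrypsin, an inhibitor of neutrophil elastase and other serine proteases that is made mainly by liver and is a protein of the acute phase. Serpina1b read 913.0, 1588 and 1300 in the knockouts and 342.5, 199.9 and 165.9 in the controls. The lowest knockout stood clear of the highest control, and knockout 1 and control 1 were the pair that came closest. The difference was 2.27 (SE 0.27, limma adjusted p = 0.0221).

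Serpina1c read 956.1, 1818 and 1443 against 361.9, 285.8 and 191.7 (2.18, SE 0.27, limma adjusted p = 0.0251), and a second Serpina1c probe set read 576.5, 1070 and 1002 against 197.0, 123.1 and 112.6 (2.33, SE 0.25, adjusted p = 0.0221). Serpina1e read 641.0, 1185 and 934.9 against 240.0, 154.5 and 164.3 (2.08, SE 0.23, adjusted p = 0.0221). Knockout 2 was the highest and knockout 1 the lowest of the knockouts in each of these probe sets, and control 1 the highest control. The remaining 3 called probe sets of the family are each assigned to several of the genes and differed by 1.69, 1.72 and 2.21. Since these paralogs share most of their sequence, the 7 probe sets count as 1 signal, and how it divides among the genes cannot be told from the array.

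Which of these genes changed cannot be told from the array. The promoters of 3 of them are printed to show how alike the paralogs are. They are RefSeq sequences of GRCm38.p6, from 250 bases before to 50 after the gene start, all on the minus strand of chromosome 12. Capitals mark the longest stretch, 59 bases, that all of Serpina1a to Serpina1e hold without a mismatch.
Serpina1b: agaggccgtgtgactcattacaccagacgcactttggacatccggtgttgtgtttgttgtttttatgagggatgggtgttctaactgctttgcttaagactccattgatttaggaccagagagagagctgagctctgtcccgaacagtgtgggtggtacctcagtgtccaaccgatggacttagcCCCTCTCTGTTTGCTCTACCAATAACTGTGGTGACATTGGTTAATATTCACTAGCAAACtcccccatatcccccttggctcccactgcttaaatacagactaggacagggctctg
Serpina1c: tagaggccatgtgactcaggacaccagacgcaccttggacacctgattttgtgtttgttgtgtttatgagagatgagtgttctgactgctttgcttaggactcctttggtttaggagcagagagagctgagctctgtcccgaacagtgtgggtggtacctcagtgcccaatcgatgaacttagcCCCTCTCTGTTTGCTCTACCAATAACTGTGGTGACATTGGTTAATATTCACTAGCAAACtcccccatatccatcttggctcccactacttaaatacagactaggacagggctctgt
Serpina1e: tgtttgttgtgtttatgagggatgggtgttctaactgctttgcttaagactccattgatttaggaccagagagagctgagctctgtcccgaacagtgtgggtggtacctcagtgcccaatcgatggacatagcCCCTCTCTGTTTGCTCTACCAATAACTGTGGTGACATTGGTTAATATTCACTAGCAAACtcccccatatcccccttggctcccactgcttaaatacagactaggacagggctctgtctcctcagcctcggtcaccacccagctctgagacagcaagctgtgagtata
They lie at chr12:103738140-103738439, chr12:103904901-103905200 and chr12:103956848-103957147. Over the 10 pairs of the Serpina1a to Serpina1e windows, best local alignments were 91.4% to 97.6% identical. The capitals hold the letters GTTAAT, which are one side of the motif bound by the liver and gut factor HNF1. Read on both strands, these letters occurred in all 5 windows and in 7.10% of the 32851 mouse promoter windows of the same length. The letters lie in the stretch chosen because all 5 share it, so their presence in all 5 was fixed beforehand. This is a description of the letters, and the arrays read mRNA, not binding.

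Other serpins of clade A, which lie beside the Serpina1 genes on the chromosome, did not share the size of that difference. Serpina3n, an inhibitor of cathepsin G and an acute-phase gene, read 1727, 2555 and 2357 against 1949, 921.7 and 1154 (0.76, limma unadjusted p = 0.0207), with control 1 above knockout 1. In annotation order the nearest tested neighbours were Serpina10 (-0.19) and Serpina6, the corticosteroid-binding globulin (-0.29), on one side and Serpina5 (-0.23) on the other, and none of these passed. The serpins outside clade A were split 4 to 4.

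Of the acute-phase list, 23 of 42 entries were tested and 13 lay higher (median 0.02 against 0.05 over all 5693 tested genes). Beyond the Serpina1 genes and Serpina3n it held the orosomucoids, which are acute-phase carrier proteins made by liver and by adipocytes. Orm1 read 1044, 1351 and 1593 against 830.5, 655.7 and 766.5 (0.78, unadjusted p = 0.00201), and Orm2 read 1210, 1412 and 1496 against 866.9, 902.2 and 786.4 (0.66, unadjusted p = 0.00110). The groups did not overlap in either gene, and neither passed over all probe sets (limma adjusted p = 0.575 and 0.413). Alb, the defining liver marker of the lists, read 188.2 to 219.0 in the knockouts and 180.6 to 184.7 in the controls. Over the liver and pancreas list 3 of 12 tested genes lay higher, with a median of -0.06.

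Ighm encodes the heavy chain of immunoglobulin M. Its called probe set read 1636, 2356 and 1742 in the knockouts and 842.3, 601.6 and 657.7 in the controls (1.40, SE 0.19, limma adjusted p = 0.0431). The lowest knockout was well above the highest control. A second probe set pointed the same way without passing, at 388.8, 525.0 and 611.2 against 268.5, 173.7 and 190.5 (1.14, SE 0.19, adjusted p = 0.155).

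The other tested probe sets assigned to Ighm did not follow. They differed by 0.01, -0.20 and -0.80, and 11 more were too dim. The last of these separated the groups the other way, at 119.7, 134.5 and 121.5 against 472.9, 186.9 and 159.7, with control 1 far above the rest. General B cell genes were alike in the groups: Cd79b, part of the B cell receptor, read 680.8, 606.9 and 616.9 against 761.5, 808.0 and 527.2. Of the B cell and plasma cell list, 9 of 22 entries were tested, 5 were higher, and the median was 0.01. Ighm lies on chromosome 12 as the Serpina1 genes do. Of the 32 tested genes between them in annotation order 0 separated the groups and 2 had an unadjusted p under 0.05. These were Serpina3n and Mok, the latter at -0.48 and named after its values were seen. Over all tested probe sets 7.62% separated the groups and 3.81% had such a p, so few are due among 32 genes.

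Cyb5b, a cytochrome b5 of the mitochondrial outer membrane, had 1 called probe set, at 449.5, 438.9 and 408.1 against 245.8, 213.4 and 180.3 (0.91, SE 0.13, limma adjusted p = 0.0469). Its brighter probe set read 1239, 1473 and 1119 against 675.5, 937.2 and 632.4 (0.75, SE 0.18, adjusted p = 0.625). Both separated the groups. Nsmf, a signalling protein that carries messages from synapse to nucleus in neurons, read 524.5, 514.1 and 465.4 against 273.5, 219.5 and 180.1 (1.06, SE 0.15, adjusted p = 0.0469). In a fit that shared its estimate of the spread with the other 6 arrays of the series, Cyb5b (adjusted p = 0.145) and Nsmf (adjusted p = 0.507) were not called. Without control 3 alone none of the 10 probe sets was called, at adjusted p from 0.0673 for Serpina1b to 0.116 for Ighm, and their differences were 0.82 for Cyb5b, 0.93 for Nsmf and 1.36 for Ighm. None was called without knockout 2, without knockout 3 or without control 2 either, with smallest adjusted p of 0.115, 0.166 and 0.102.

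**Figure D1:**
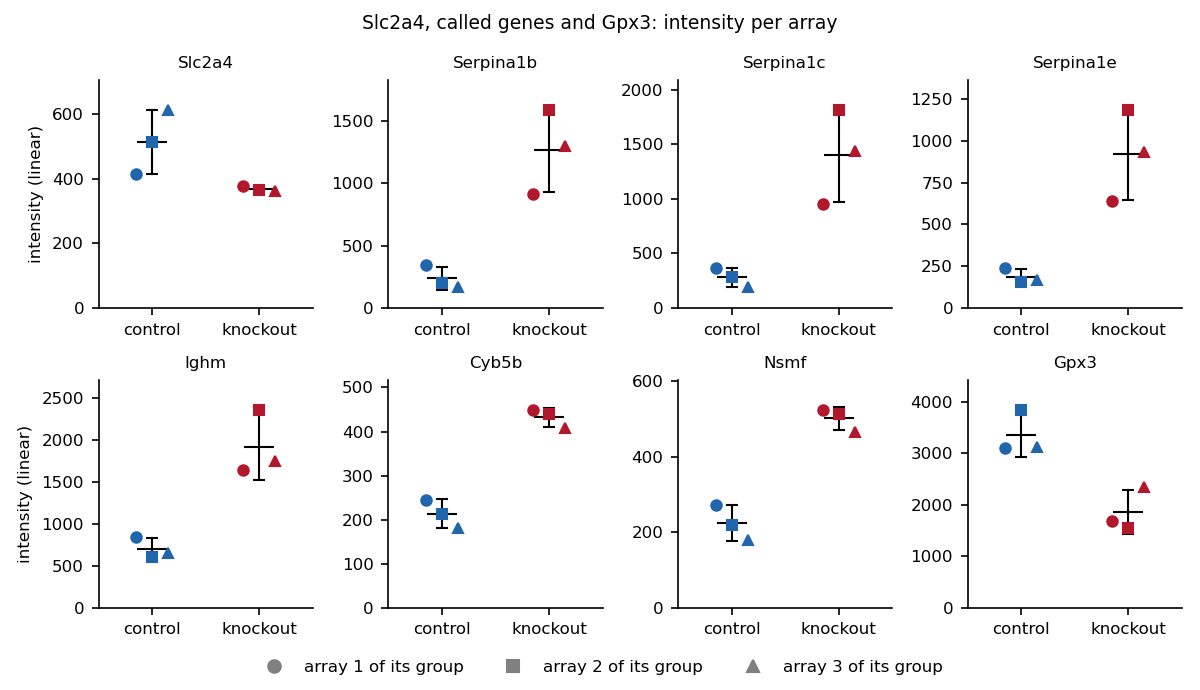
Linear intensity of Slc2a4, the called genes and Gpx3 on each of the 6 arrays (control in blue, knockout in red, symbols for the array number within its group, dash and bar for the mean and SD of 3 arrays). The Serpina1b knockouts read 913.0 to 1588 and its controls 165.9 to 342.5, and the Slc2a4 knockouts sit just under the lowest control.

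Several genes came close without passing. Pla2g12a, a secreted phospholipase A2, read 532.8, 559.2 and 835.6 against 222.0, 256.2 and 143.6 (1.48, SE 0.22, limma adjusted p = 0.0718). Hfe, the membrane protein that tunes iron uptake, read 381.1, 594.7 and 582.3 against 284.3, 159.9 and 184.0 (1.18, SE 0.22, adjusted p = 0.266). In both the groups stood apart on every array.

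Nsdhl, an enzyme that removes methyl groups on the way to cholesterol, read 439.4, 390.1 and 321.5 against 207.7, 190.6 and 162.9 (0.90, SE 0.14, limma adjusted p = 0.0859), and its second probe set 310.0, 304.3 and 253.2 against 179.1, 203.5 and 219.6 (0.46). Mme, the peptidase neprilysin, differed by 0.77 (adjusted p = 0.300) with knockouts at 184.6 to 226.2 and controls at 85.75 to 133.9. Reep6, a protein that shapes endoplasmic reticulum membranes, differed by 0.62. A dim probe set of Ywhag, a 14-3-3 adaptor, differed by 0.88, while the bright one that stands for the gene differed by 0.17 (3770, 4019 and 3837 against 3345, 3806 and 3228).

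The lower side held few genes, and the 10 with the smallest p among those that stand for a gene included Slc2a4 itself. Gpx3, the secreted glutathione peroxidase made by adipocytes and kidney, read 1684, 1561 and 2346 against 3097, 3850 and 3121 (-0.85, SE 0.18, limma adjusted p = 0.413). The highest knockout was below the lowest control. Hsd11b1, which regenerates active glucocorticoid, was tight within each group at 279.2, 293.4 and 270.3 against 389.2, 387.0 and 400.2 (-0.43, SE 0.10, adjusted p = 0.596).

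Inmt, a methyltransferase of indole amines, read 258.5, 349.7 and 423.9 against 650.0, 506.1 and 1284 (-1.08, SE 0.31, limma unadjusted p = 0.00760), where control 3 was the high array. Nkx2-6, a homeobox factor, differed by -0.39, and Car6, a secreted carbonic anhydrase, by -0.43. Sh3bgr differed by -0.40 and its other probe set by -0.08. Pth1r, the receptor of parathyroid hormone, differed by -0.41. Atp11a, a phospholipid flippase, differed by -0.53, with knockouts at 272.0, 429.5 and 443.6 and controls at 610.2, 573.6 and 492.5. For Alpl, the tissue-nonspecific alkaline phosphatase (-0.49), knockout 1 at 260.1 lay above control 3 at 253.8, whereas the other genes of this side separated the groups.

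**Figure D2:**
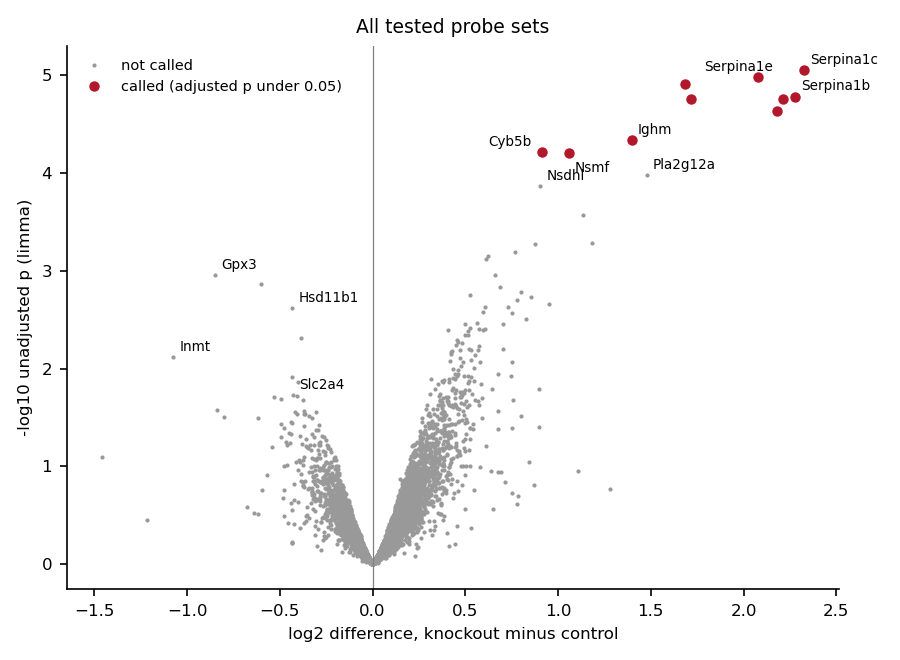
Each tested probe set by its log2 difference, knockout minus control, against -log10 of the unadjusted limma p. Red points are the 10 called probe sets, which all lie to the right, and Gpx3 at -0.85 is the lower gene with the smallest p.

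Below the few calls, 60 fixed lists (45 pathways and 15 cell types) and 64 families defined by gene symbol were described by their counts and medians, with no test of a list. Their entries are read against the 63.8% of all tested genes that lay higher, since control 3 was dim for most genes. Of all 5693 tested genes 302 had every knockout above every control and 116 had every knockout below. An unadjusted p under 0.05 was reached by 162 higher and 30 lower genes. The Serpina1 genes and Ighm were the only members called, and in all other lists the count of called members was 0. In bulk fat, fewer cells of a type and less RNA per cell cannot be told apart.

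The genes of glucose uptake and phosphorylation did not lie to one side: 4 of 8 tested were higher and the median was -0.01. Txnip, a glucose-responsive gene that restrains uptake, read 1735, 1742 and 3003 against 2648, 2957 and 3122 (-0.47, unadjusted p = 0.0567), with knockout 3 among the controls. Its dimmer probe set differed by 0.02. Hk2, the insulin-responsive hexokinase, differed by 0.25, and Slc2a1, the basal transporter Glut1, read 374.0, 300.1 and 307.4 against 345.7, 323.1 and 347.4. No tested gene of this list stood higher in all knockouts than in all controls.

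In glycolysis 12 of 16 tested genes were higher (median 0.20, 0.13 without control 3 and 0.31 without control 2). Pfkfb3, which makes the activator of phosphofructokinase, read 2840, 3137 and 2686 against 2206, 1650 and 2144 (0.53, SE 0.15, unadjusted p = 0.00651). Its second probe set gave 0.54, and both separated the groups. Pfkp, a phosphofructokinase, differed by 0.43 in 1 probe set and 0.40 in the other, with knockouts above controls in each. Pfkl, the liver-type isoform, differed by 0.50 and Tpi1, triose phosphate isomerase, by 0.38, with control 2 inside the knockout range in each.

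The genes that turn glucose into fatty acid were higher on average, but not against every control. All 12 tested of the fatty acid synthesis list lay higher (median 0.28), 2 with an unadjusted p under 0.05. Of all 5693 tested genes 162 were higher with such a p. The list mean per array, relative to the 6-array mean, was 0.27, 0.23 and -0.01 in knockouts 1 to 3 and -0.40, 0.25 and -0.35 in controls 1 to 3. Control 2 was thus as high as the knockouts and controls 1 and 3 were low.

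Me1, malic enzyme, which supplies NADPH, showed that pattern at 1557, 1354 and 1496 against 646.2, 1557 and 617.8 (0.75, unadjusted p = 0.0401). Acly, ATP citrate lyase, read 2630, 2239 and 1644 against 1144, 2413 and 1213 (0.50), and its partner Slc25a1, the citrate carrier, 1746, 2125 and 1994 against 1019, 2187 and 1207 (0.47). Fasn, fatty acid synthase, read 4367, 3879 and 3068 against 2396, 4485 and 2967 (0.23). In each of these genes control 2 lay within or above the knockout range.

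Scd2, a stearoyl-CoA desaturase, was a member with every knockout above control 2 as well, at 3026, 3127 and 1837 against 1705, 1654 and 1252 (0.75, SE 0.22, unadjusted p = 0.00863). Its other probe set gave 0.64. Scd1, the main adipose isoform, was bright on every array, at 7352, 7443 and 7570 against 7427, 7356 and 6421. With control 2 as the one control the list median was -0.17, and the differences of Me1 (-0.084), Acly (-0.18), Slc25a1 (-0.16) and Fasn (-0.26) changed sign. The pentose phosphate pathway, the other NADPH source, had 8 of 9 tested genes higher (median 0.25, 0.14 without control 3, 0.15 without knockout 3 and -0.08 against control 2 alone), with Taldo1, transaldolase, at 0.34.

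Triglyceride synthesis showed the same low control 1. Of 13 tested genes 10 were higher (median 0.13). That median was 0.08 without knockout 3, 0.21 without knockout 2, 0.31 without control 2 and -0.04 against control 2 alone. Control 1 was the lowest of the 6 arrays in 9, and over all probe sets it was lowest in 7.04%. Gpd1, which makes glycerol 3-phosphate from glycolysis, read 3174, 3183 and 2233 against 865.0, 3121 and 1919 (0.69, unadjusted p = 0.114). Aqp7, the glycerol channel of adipocytes, separated the groups at 232.2, 250 and 328.7 against 169.4, 210.0 and 202.3 (0.40). Lpin1, a phosphatidate phosphatase, differed by 0.52, and Pck1, which makes glycerol from pyruvate, read 3180 to 3868 in knockouts and 3516 to 4020 in controls.

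All 12 tested genes of the lipid droplet and lipolysis list were higher (median 0.26), and 4 separated the groups. Of all 5693 tested genes 302 had every knockout above every control. Bscl2, seipin, which shapes new droplets, read 1320, 1469 and 1414 against 976.6, 1238 and 1034 (0.37, unadjusted p = 0.0283). Plin2, a droplet coat protein, read 2832, 2884 and 2777 against 2045, 2514 and 2500 (0.27). The median was 0.19 without control 1, 0.20 without control 3, 0.16 with both left out and 0.17 without knockout 3. Among fatty acid handling genes, Fabp5, a fatty acid carrier, read 1561, 1878 and 1675 against 1059, 1506 and 1191 (0.45), and Lpl, lipoprotein lipase, 5627, 6155 and 5673 against 4896, 5384 and 4338 (0.26), each separating the groups.

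Genes that burn fuel in mitochondria were higher together. Mitochondrial fatty acid oxidation had 18 of 18 tested genes higher (median 0.26), branched-chain amino acid breakdown 16 of 17 (median 0.30), pyruvate oxidation with the citric acid cycle 21 of 22 (median 0.22) and oxidative phosphorylation 50 of 55 (median 0.16). An unadjusted p under 0.05 was reached by 3, 3, 1 and 1 of them, beside 162 higher and 30 lower of all 5693 tested genes. For the citric acid cycle and oxidative phosphorylation that is near the share over all genes. The list means overlapped between groups in all of the lists named. In fatty acid oxidation they were -0.03, 0.10 and 0.33 in the knockouts and -0.30, 0.09 and -0.18 in the controls.

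Acadl, the long-chain acyl-CoA dehydrogenase, separated the groups at 527.9, 541.4 and 657.0 against 337.6, 447.3 and 456.8 (0.45, SE 0.15, unadjusted p = 0.0178). Etfdh, which passes electrons from these dehydrogenases to ubiquinone, read 450.1, 487.5 and 631.6 against 304.9, 478.8 and 318.9 (0.48), so that control 2 lay among the knockouts. Acadm, the medium-chain dehydrogenase, differed by 0.40 and Decr1, a reductase for unsaturated chains, by 0.45. Control 1 was the lowest array in 13 of the 18 genes and knockout 3 the highest in 14.

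In branched-chain amino acid breakdown Mmut, methylmalonyl-CoA mutase, read 921.3, 880.4 and 990.9 against 658.2, 812.1 and 662.0 (0.38, unadjusted p = 0.0235) and separated the groups. Auh, of leucine breakdown, did so at 539.2, 557.1 and 625.2 against 434.8, 495.0 and 445.4 (0.30), while its dimmer probe set (0.15) did not. Ivd, isovaleryl-CoA dehydrogenase, differed by 0.43 and Mcee, which feeds Mmut, by 0.29, with control 2 inside the knockout range in each. In the citric acid cycle Idh3a, the NAD-dependent isocitrate dehydrogenase subunit, separated the groups at 338.6, 317.1 and 317.6 against 208.1, 276.0 and 244.0 (0.38, unadjusted p = 0.0133). Cs, citrate synthase, read 1858, 1894 and 2085 against 1463, 1834 and 1510 (0.28), and Idh2, the NADP-dependent enzyme, differed by 0.40.

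For oxidative phosphorylation, Cycs, cytochrome c, read 216.3, 221.2 and 234.3 against 137.2, 227.0 and 130.2 (0.40, unadjusted p = 0.0482), and Ndufs1, of complex I, differed by 0.34, again with control 2 at knockout level. The median of this list was 0.06 without control 3 and -0.13 against control 2 alone. Peroxisomal genes were higher in 13 of 15 (median 0.24, 0.14 without knockout 3, 0.39 without control 2 and 0.02 against control 2 alone). Abcd2, which imports very long-chain fatty acids into peroxisomes, separated the groups at 768.8, 859.8 and 943.0 against 632.7, 534.5 and 498.1 (0.60, SE 0.14, unadjusted p = 0.00268), and Pex13, a docking protein of peroxisomal import, differed by 0.50. Slc25a10, the mitochondrial dicarboxylate carrier, had the largest difference of the 104 tested solute carriers, at 928.2, 1305 and 1074 against 398.8, 738.3 and 550.4 (0.95, SE 0.22, unadjusted p = 0.00220).

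Cholesterol synthesis and uptake was among the lists whose array means did not overlap, at 0.10, 0.15 and 0.14 in the knockouts and -0.10, -0.08 and -0.20 in the controls. Of 16 tested genes 14 were higher (median 0.18), and the median was 0.18 without control 1, 0.14 without control 3, 0.14 without both and 0.12 without knockout 3. Besides Nsdhl, Idi1, which isomerises isopentenyl diphosphate, read 254.7, 275.5 and 198.1 against 151.6, 161.8 and 125.0 (0.61, SE 0.14, unadjusted p = 0.00237). Fdps, farnesyl diphosphate synthase, read 469.7, 512.3 and 385.9 against 259.7, 357.9 and 195.9 (0.70) and 0.83 in its other probe set. Hmgcs1, at the entry of the pathway, differed by 0.50, with knockout 1 (1129) below control 1 (1272).

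Other lipid lists held single genes of note. The sphingolipid and phospholipid list, which contains Pla2g12a, had 21 of 24 higher (median 0.14, and 0.09 without knockout 3 or without control 3), and Lpgat1, an acyltransferase of phospholipid remodelling, read 817.0, 1143 and 1033 against 772.0, 692.7 and 504.0 (0.59) with 0.53 in its other probe set. In retinoid handling 9 of 12 were higher (median 0.13, 0.07 without knockout 2 and 0.25 without control 1). Aldh1a7, an aldehyde dehydrogenase, read 971.1, 1309 and 1162 against 522.8, 808.7 and 546.6 (0.85, SE 0.19, unadjusted p = 0.00184). Rbp4, the plasma carrier of retinol, which fat also releases, read 3066, 3274 and 3362 against 2496, 2749 and 1998 (0.43, SE 0.14, unadjusted p = 0.0166). Both separated the groups, and Stra6, the receptor of Rbp4, read 680.3, 836.1 and 374.5 against 461.6, 409.6 and 457.7 without doing so.

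In the nicotinamide list Nnmt, which methylates nicotinamide, separated the groups at 1023, 1310 and 1151 against 690.3, 843.6 and 769.5 (0.57, SE 0.15, unadjusted p = 0.00390). Aox1, an oxidase of the product of Nnmt, did so at 387.6, 458.6 and 560.5 against 331.5, 298.4 and 330.8 (0.49). The rest of that list did not follow, with 6 of 10 tested genes higher and a median of 0.11 (0.05 without knockout 3, 0.17 without control 2 and -0.01 without control 3). Among glucocorticoid genes 6 of 14 were higher (median -0.02), and Hsd17b12, a chain-elongating reductase, was at 0.38. Antioxidant enzymes were split, 13 of 27 higher (median -0.0040): Gpx3 was at -0.85, the glutathione transferase Gstm2 at 0.50 and extracellular superoxide dismutase Sod3 at 0.46. The dimmer Gstm2 probe set was at -0.06.

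Secreted products of fat differed little as a list, with 11 of 18 higher (median 0.05). Lep, leptin, read 2649, 3414 and 2791 against 2798, 1518 and 2052 (0.50, SE 0.22, unadjusted p = 0.0464), with control 1 inside the knockout range. Adipoq, adiponectin, was alike at 6390, 6473 and 6878 against 6278, 6715 and 5948. Retn, resistin, read 3679 to 4464 and 3641 to 4251. Agt, angiotensinogen, lay lower at 371.9, 420.5 and 543.4 against 572.5, 620.2 and 549.2 (-0.37, unadjusted p = 0.0389).

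The adipocyte identity genes were present at high levels on all arrays. Fabp4, the adipocyte lipid carrier, read 3539 to 3759 in knockouts and 3488 to 3681 in controls. Pparg, the master regulator of fat cells, read 654.7, 665.6 and 845.6 against 494.3, 638.7 and 582.1 (0.32, unadjusted p = 0.0713). Of the adipocyte marker list 9 of 10 tested genes were higher (median 0.11), and the median was 0.07 without control 3, 0.18 without knockout 1, 0.17 without control 2 and 0.05 against control 2 alone. In insulin receptor signalling Akt2, the kinase that moves Glut4 to the surface, separated the groups at 954.3, 1105 and 1431 against 764.5, 935.8 and 732.0 (0.49, unadjusted p = 0.0232), within a list with 12 of 15 higher (median 0.11, and 0.06 without control 3).

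Genes of vessels and oxygen response included Epas1, the hypoxia factor HIF-2 alpha, at 364.5, 332.5 and 341.1 against 289.7, 178.7 and 204.6 (0.57, SE 0.16, unadjusted p = 0.00587). Vegfa, the main endothelial growth factor, read 303.9, 352.7 and 392.4 against 253.1, 241.7 and 279.3 (0.39, unadjusted p = 0.0130). Both separated the groups, while the list as a whole had 16 of 24 higher (median 0.07). Igfals, which stabilises circulating IGF complexes, read 337.9, 422.1 and 332.9 against 219.6, 171.9 and 248.4 (0.69, SE 0.15, unadjusted p = 0.00146) in a list with 5 of 13 higher. Alas1, the first enzyme of heme synthesis, differed by 0.47 and Fzd4, a Wnt receptor, by 0.46.

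Stromal and immune markers were not displaced as groups. Macrophage markers were higher in 12 of 18 (median 0.05), and Cd68, a lysosomal macrophage protein, read 393.3, 395.2 and 419.8 against 458.0, 261.4 and 326.6, with Adgre1 at 160.1 to 264.9 and 141.2 to 245.2. T cell and NK cell markers were higher in 9 of 12 (median 0.07), with Cd3e at 134.6 to 171.4 and 155.9 to 179.3. Collagens and matrix genes were higher in 23 of 42 (median 0.03), with Thbs2, a matrix glycoprotein, at -0.44 and Col18a1, the source of endostatin, at 0.39. Endothelial markers were lower in 9 of 15 (median -0.03), with Pecam1 at 227.2, 380.5 and 452.4 against 451.4, 411.7 and 351.7, and progenitor markers were split 6 to 6, with Pdgfra at 827.7 to 1080 and 881.3 to 1053.

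Smooth muscle and pericyte markers were the cell type list that lay lowest, with 9 of 12 lower (median -0.18). Tagln, an actin-binding protein of contractile cells, read 2670, 3109 and 3263 against 4371, 3850 and 3546 (-0.38, SE 0.13, unadjusted p = 0.0209) and separated the groups. Myl9 (-0.45) and Cnn1 (-0.44), both of the contractile apparatus, overlapped through control 3, and Rgs5, a pericyte gene, went the other way at 198.5, 235.9 and 217.5 against 207.1, 115.4 and 144.0 (0.43). The list median was -0.05 without control 1, which had the highest list mean (0.36), and -0.34 without control 3. Mesothelial markers, of the sheet that covers this depot, were lower in 7 of 8 (median -0.13, -0.07 without knockout 2, -0.05 without control 2 and -0.22 without control 3), with Msln at 188.2 to 310.9 and 202.8 to 287.8.

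Among families, annexins, which bind membranes in a calcium-dependent way, were higher in 7 of 7 (median 0.22, and 0.11 without control 3), with Anxa2 at 4510, 4999 and 5217 against 4350, 3852 and 3192 (0.38). The vacuolar ATPase subunits, which acidify lysosomes, were higher in 15 of 15 (median 0.19), with Atp6v1a at 0.48 and Atp6v0a1 at 0.40, both separating the groups, and the median was 0.11 without control 3 and 0.11 without knockout 3. Dimmer Atp6v1a probe sets, at 0.15 and 0.50, did not separate the groups. Of the tubulins 10 of 13 were higher (median 0.15, and -0.01 without control 3), with Tuba1a at 4795, 6122 and 4432 against 4385, 2656 and 2697 (0.68, unadjusted p = 0.0115). Large families centred near the median of all genes: 104 solute carriers at 0.03, 25 keratins at -0.03, 21 cytochromes P450 at 0.01 and 22 MHC genes at -0.02. Among 19 homeobox cluster genes Hoxc8 (0.41) was the member with the smallest p, and in the 7 kallikreins all were lower (median -0.10, and 0.00 without knockout 3).

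**Figure D3:**
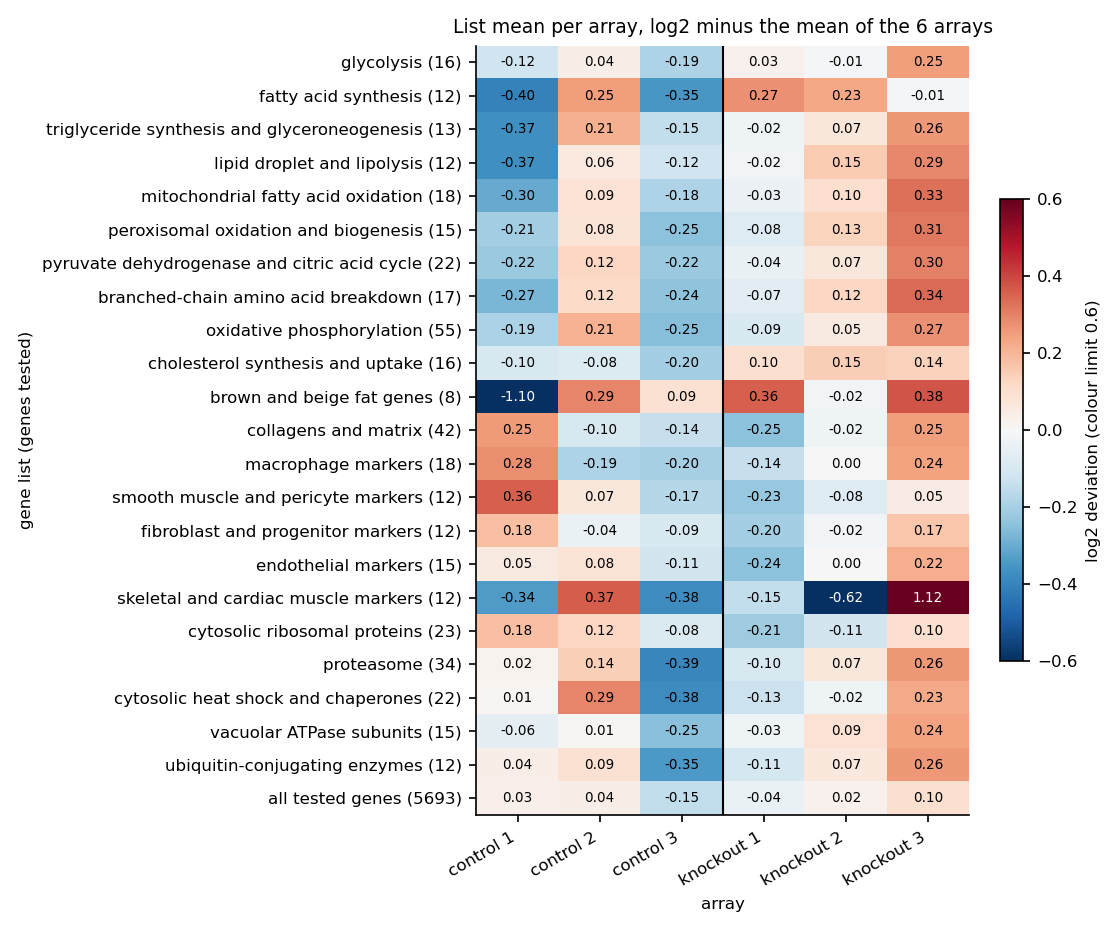
Mean log2 deviation of each list on each array from the mean of the 6 arrays, controls left of the line and knockouts right of it (red above, blue below, number of tested genes in parentheses, colour saturating at 0.6). Control 1 is low in brown fat genes (-1.10), control 3 is low in the proteasome (-0.39), and knockout 3 is high in muscle markers (1.12).

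Control 1 differed from the other controls in kind. Against the mean of controls 2 and 3 its median over genes was 0.08, yet it was the lowest of the 6 arrays in 5 of 8 genes of thermogenic fat and high for stroma and macrophages. In fatty acid synthesis controls 1 and 3 were the lowest array in 6 genes each. Ucp1, the uncoupling protein of brown and beige adipocytes, read 50.37 in control 1 beside 1232 and 807.9 in the other controls and 1452, 711.4 and 1159 in the knockouts. Its second probe set read 33.29 beside 244.4 to 463.2.

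Cidea, a lipid droplet protein of thermogenic fat, read 171.4 in control 1 and 893.6 to 1192 elsewhere, and Fabp3, a fatty acid carrier of oxidative tissue, 50.21 and 230.3 to 447.2. Cox8b read 480.6 and 1088 to 1860, and Thrsp, a lipogenic nuclear protein, 956.1 and 1647 to 3068. No knockout and neither of the other controls came near these low values. The knockout difference of Ucp1 was 1.28 with an SE of 0.85, and the brown and beige list median of 0.46 became 0.09 without control 1 and 0.55 without control 3. The knockout means of Ucp1, Cidea and Fabp3 (1107, 1097 and 364.8) lay below control 2 (1232, 1181 and 428.9).

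On the high side of control 1 were Mest, an imprinted gene linked to adipocyte expansion, at 863.5 (72.61 in control 2, 368.8 in control 3 and 353.2 to 662.9 in the knockouts), and Fos, an immediate early gene, at 381.0 beside 97.62 to 184.6. Igkv6-23, an immunoglobulin light chain segment, read 1023 beside 214.6 to 499.2. Lrg1, an acute-phase protein, read 2772 in control 1, 774.5 and 1233 in controls 2 and 3 and 1083, 1772 and 2759 in the knockouts, so that knockout 3 was as high. Lbp, another, read 987.9 in control 1, 440.4 and 290.2 in controls 2 and 3 and 537.3 to 781.6 in the knockouts. The list means of control 1 were 0.28 for macrophage markers, 0.25 for matrix and 0.36 for smooth muscle. Leaving it out raised the macrophage median from 0.05 to 0.19 and the matrix median from 0.03 to 0.15, and lowered those of fatty acid oxidation from 0.26 to 0.18, of the citric acid cycle from 0.22 to 0.15 and of fatty acid synthesis from 0.28 to 0.13. Without control 1, 9 probe sets were called, all among the 10.

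Control 3 differed first in level. Of the tested genes 76.6% lay below the mean of the other controls, with a median of -0.16. It was the lowest of the 6 arrays in 33 of 34 proteasome genes, 18 of 22 cytosolic chaperones, 11 of 12 ubiquitin-conjugating enzymes, 21 of 31 Rab GTPases and 31 of 55 oxidative phosphorylation genes. In the proteasome list 33 of 34 genes were higher in the knockout (median 0.15), and without control 3 the median was -0.01.

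The ubiquitin-conjugating enzymes went from 0.17 to 0.00, the Rab GTPases from 0.13 to -0.03 and the cytosolic chaperones from 0.05 to -0.13. Cytosolic ribosomal proteins moved the other way and had 22 genes lower and 1 higher (median -0.16, and -0.23 without control 3), with 23 of the 75 listed genes tested. Of the metabolic lists, fatty acid oxidation (0.25), branched-chain amino acid breakdown (0.26), fatty acid synthesis (0.27) and lipid droplet genes (0.20) kept most of their median without control 3. For fatty acid synthesis control 1, which was low as well, was still included. Other metabolic lists lost more. Glycolysis went from 0.20 to 0.13, and oxidative phosphorylation and the pentose phosphate pathway also fell. Over all 125 groups counted, the set of all tested genes among them, 91 medians lay above 0 with 6 arrays and 57 did without control 3, and 38 changed sign.

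Control 3 also differed in single genes. Ltf, lactoferrin, a secreted iron-binding protein of epithelia and neutrophils, read 672.1 there, 362.4 in knockout 1 and 68.25 to 95.27 on the other arrays. Inmt (1284), Igfbp3 (480.6 beside 137.6 to 284.8) and Sox4 (751.1 beside 367.0 to 404.5) were high. Hif1a, the hypoxia factor HIF-1 alpha, was low at 743.2 beside 1383 to 1947. Inhbb, an inhibin and activin subunit, read 144.5 in control 3, 909.4 and 544.0 in controls 1 and 2 and 173.9, 271.6 and 781.3 in the knockouts. Socs2, a brake on growth hormone signalling, read 129.3 in control 3, 531.2 and 476.4 in controls 1 and 2 and 193.9, 222.2 and 427.7 in the knockouts. Knockouts 1 and 2 were thus low in both genes as well.

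Xist, the RNA of the inactive X chromosome, read 86.49 in control 3 beside 293.3 to 560.4 on the other arrays. The 3 Y-linked probe sets of Eif2s3y, Kdm5d and Uty were too dim to test. In control 3 Eif2s3y read 22.77 (30.70 to 37.22 on the other arrays), Kdm5d 79.96 (38.80 to 61.20) and Uty 57.47 (28.63 to 46.05), so that it was the lowest array for the first and the highest for the others. The labelled sex was the same for all 6 mice, and the part of these genes in other results was not tested.

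With control 2 as the one control left, the lists parted further. Medians near or under 0 were found for fatty acid oxidation (0.05), branched-chain amino acid breakdown (0.02), the citric acid cycle (-0.04) and glycolysis (-0.01). They stayed above 0 for cholesterol synthesis (0.14), lipid droplet genes (0.16), retinoid handling (0.27), macrophage markers (0.25) and Serpina clade serpins (1.21). The Serpina median is the value of 1 gene, Serpina3n, which read 921.7 in control 2 and 1949 in control 1. The Serpina1 genes, which count as 1 signal, lay above it. Over all 6 arrays Serpina3n differed by 0.76, and Serpina5 (-0.23), Serpina6 (-0.29) and Serpina10 (-0.19) lay lower. Control 2 had its own peculiarities: Hcfc1 read 22.27, the floor, beside 303.7 to 449.5, a probe set of Lsr read 22.27 beside 211.5 to 316.4, and Mup5, a major urinary protein, 1711 beside 89.34 to 391.4.

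**Figure D4:**
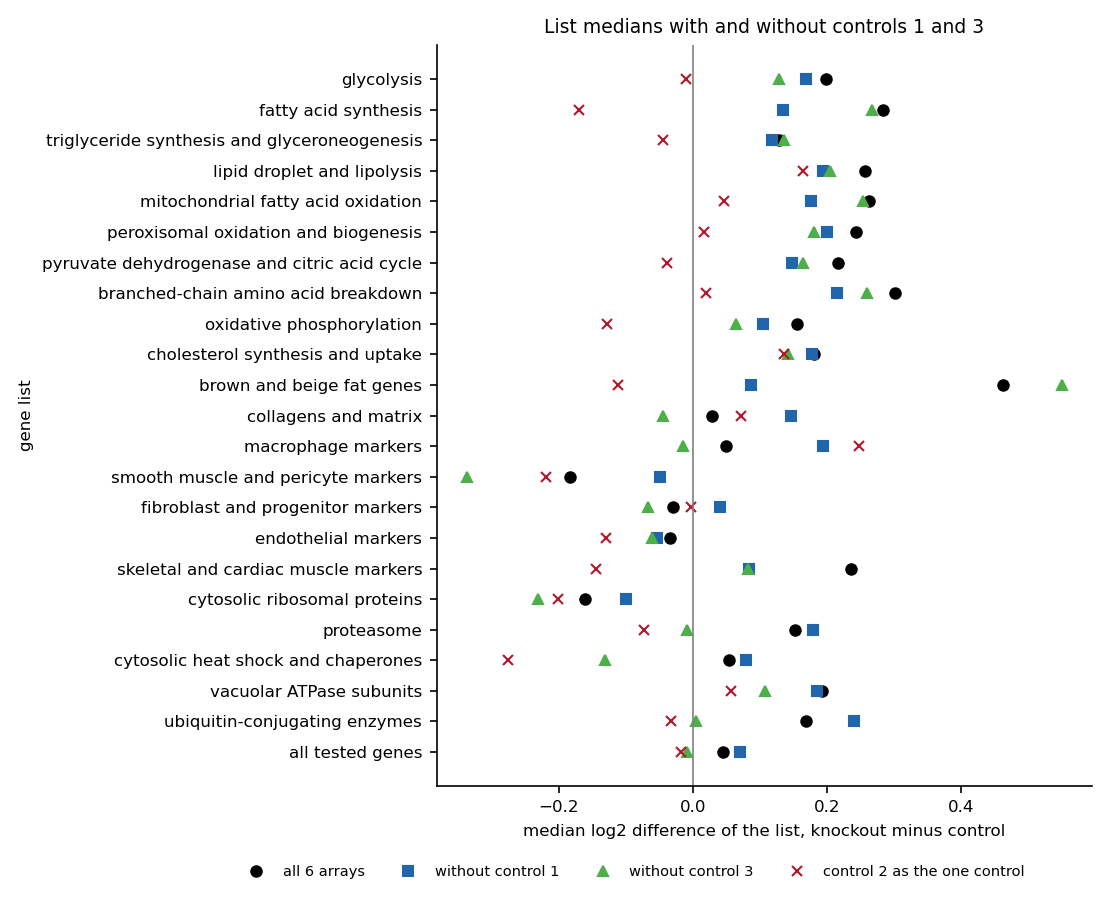
Median log2 difference, knockout minus control, of the same lists with all 6 arrays (black), without control 1 (blue), without control 3 (green) and with control 2 as the one control (red crosses). The cholesterol median stays between 0.14 and 0.18, while fatty acid synthesis runs from 0.28 to -0.17.

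Single knockouts stood apart as well. Skeletal muscle genes were highest in knockout 3: Myh1, a fast myosin heavy chain, read 1199 there and 29.60 to 434.4 elsewhere, Atp2a1, the calcium pump of fast fibres, 1540 and 64.70 to 464.4, and Acta1, skeletal actin, 3781 and 811.9 to 2082. Its muscle list mean was 1.12, next to 0.37 in control 2 and -0.62 to -0.15 on the other arrays. The list had 11 of 12 genes higher (median 0.24), and without knockout 3 its median was -0.14. Gdpd3, a phospholipase D-like enzyme, read 44.39 in knockout 3 and 401.3 to 1237 elsewhere, and a Rufy3 probe set read 22.27.

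Many metabolic medians were lower without knockout 3. They were 0.17 for fatty acid oxidation, 0.18 for branched-chain amino acid breakdown, 0.14 for the citric acid cycle and 0.05 for oxidative phosphorylation, and that of fatty acid synthesis was 0.42. Without control 2 they were 0.39, 0.39, 0.36 and 0.31, and that of fatty acid synthesis was 0.59. Knockout 1 read 834.1 for Ovgp1, an oviduct glycoprotein, beside 121.7 to 185.4 elsewhere, and 2167 for the globin gene Hba-a1 beside 4420 to 6148. The ovary, oviduct and uterus markers had 5 of 12 higher (median -0.05). The part that adjoining tissue takes in other results was not tested.

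**Figure D5:**
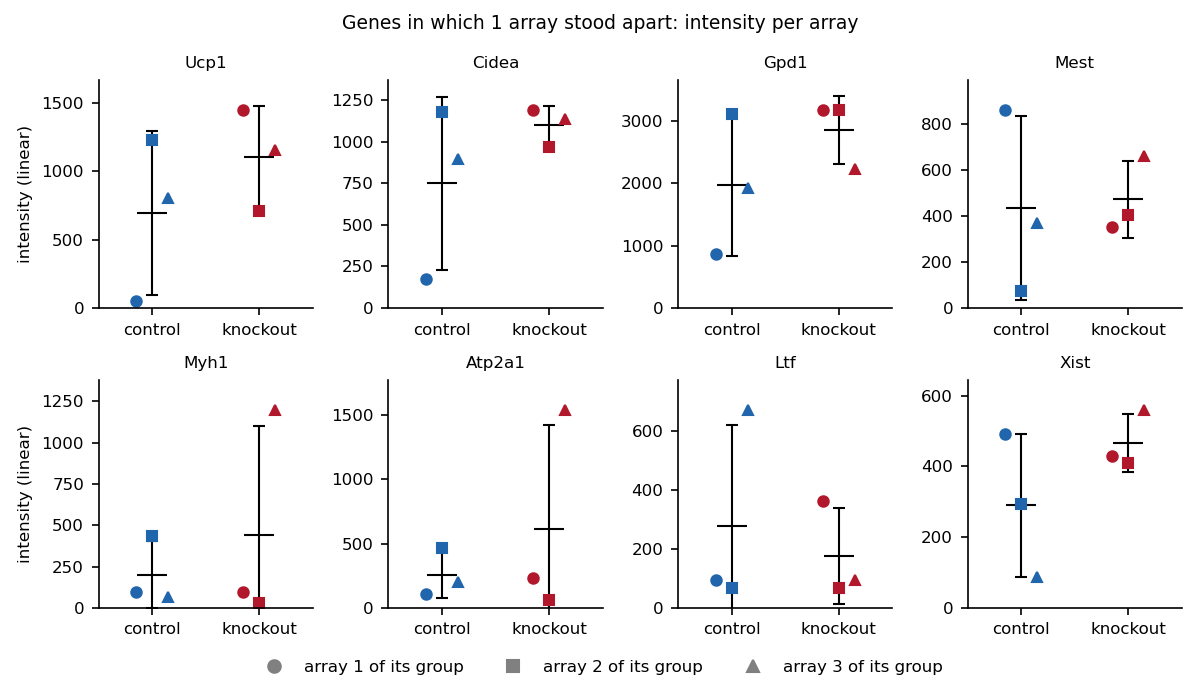
Linear intensity on each array of 8 genes in which 1 array stood apart (control in blue, knockout in red, dash and bar for the mean and SD of 3 arrays). Control 1 is lowest for Ucp1 (50.37), Cidea (171.4) and Gpd1 (865.0), knockout 3 is highest for Myh1 (1199) and Atp2a1 (1540), and control 3 is highest for Ltf (672.1) and lowest for Xist (86.49).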

How the data were processed

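The deposited values are linear intensities, 1 for every probe set of an array, and per the labels the RNA was total RNA on an Affymetrix array. How the authors summarised, scaled and background-corrected them is not given in the sources used here, nor are scan batches.

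The 6 columns were used as deposited, since the array medians lay within 0.1505 of each other on the log2 scale and a renormalization was planned only above 0.5. The constant 36.841 is the 10th percentile of the 6 columns. The 40% of probe sets with the lowest mean were left out. The difference between the 2 group means was fitted by limma (version 3.58.1, run under R version 4.3.3). Its moderated variances followed a trend in mean intensity, and 4 residual degrees of freedom were joined by 4.611 from the prior. The number of arrays limits the precision. On simulated data with 200 changed probe sets, 77% were recovered at a log2 change of 1 and 98% at 2. False calls there were 7 and 9. The simulated data kept the spread of each probe set, gave all arrays equal quality and had changes in both directions. These percentages therefore do not give the sensitivity on the real arrays. Those differ in level and spread, and far fewer probe sets were called on them. On the real arrays Nsmf at 1.06 was called by limma (adjusted p = 0.0469). Hfe at 1.18 (adjusted p = 0.266) and Inmt at -1.08 (adjusted p = 0.944) were not. Within a group the root mean square log2 difference between arrays was 0.216 to 0.353, so each array counted as 1 replicate.

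Symbols came from the platform annotation, where 10833 probe sets have a single symbol, 396 have several and 1193 lack one. By gene ID, 10817 of the single ones were found in RefSeq GRCm38.p6. The probe set with the highest mean stood for a gene. List entries comprised 998 tested, 276 dim and 334 not named. The comparison, its lists and families were chosen with earlier results of these data known. Named were Slc2a4, called genes, the 10 genes per direction with the smallest p, the leading members of each list (at most 4, plus 2 lying the other way), a set of adipose genes and markers (of which Plin1, Cfd, Mlxipl, Serpina1a and Serpina1d had no probe set of their own and Star was too dim), and genes in which control 1 or 3 deviated most. Genes of knockouts 1 and 3 and of control 2 that stood apart were named after their values were seen. Plots used Python 3.11.15 with matplotlib 3.10.9.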

Additional observations from a re-analysis of the deposited data

How the results depend on the processing

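The 10 calls held with a constant at the 25th percentile (10), robust eBayes (10), the lowest 60% left out (11), array medians subtracted (11), quantile normalization (12 higher and 1 lower, Gpx3 at an adjusted p of 0.0402) and array weights (12), and 8 to 9 were made with a constant of 1, no trend or all 12 arrays in the fit. At an adjusted p under 0.1 there were 12. With dim probe sets kept, 0 were called by limma (514 at an unadjusted p under 0.05). Deviations of same-numbered arrays correlated at -0.232, -0.0292 and -0.349, and those of the other combinations at -0.19 to 0.411. Deviations sum to 0 within each group of 3, so these correlations cannot decide whether the arrays were paired. With the replicate number as a block 0 were called by limma (176 at an unadjusted p under 0.05). Leaving out 1 array gave 0 to 9 calls by limma, all higher. There were 7 without knockout 1 and 9 without control 1. There were 0 without knockout 2, knockout 3, control 2 or control 3, with 147, 340, 378 and 202 at an unadjusted p under 0.05. With control 2 as the one control all 10 stayed higher, at 2.43 for Serpina1b, 1.59 for Ighm, 0.91 for Cyb5b and 1.07 for Nsmf, but not all of them passed. There the spread comes from the knockouts alone and the lone control is assumed to vary like them, so a gene odd on control 2 is called by construction. Such were Mup5 and 2 probe sets without a gene name on the lower side and Hcfc1, Mest and Lsr on the higher side, all of which stood apart on control 2. There the genes that changed sign included Hk2 (-0.097), Me1 (-0.084), Acly (-0.18), Slc25a1 (-0.16), Fasn (-0.26), Gpd1 (-0.14), Cycs (-0.017), Ndufs1 (-0.077), Cox7a1 (-0.0010) and Taldo1 (-0.080). Pla2g12a was called with 5 alternatives (adjusted p 0.0113 to 0.0455) and Nsdhl with array weights (0.0189). The Serpina1b difference ran from 2.09 to 2.54 over the arrays left out.

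Quantile normalization turned the sign of 34 of 125 group medians and median subtraction of 25. With 1 mouse per array and 3 per group, an animal's own state and its genotype cannot be separated for values that 1 array decides, and the unknown share of each strain adds to that spread.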
